A study of Mus musculus with 12 samples.

Results

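The RNA of potassium, sodium, chloride and TRP channel genes was followed in C2C12 cells, a mouse myoblast line that fuses into multinucleated myotubes when serum is lowered. The genes were chosen by the spelling of their symbols (Kcn, or Scn, Clcn, Ano, Trpc, Trpm, Trpv or Piezo with a number) and by a level of at least 1 TPM (a transcript level scaled to transcript length and to the total of its library) in at least 3 of the 12 libraries. Of 154 symbols with that spelling, 51 passed, out of 13080 genes of any kind that passed the same filter. The spelling takes in 3 genes outside the channel families. They are Kcnmb4os2, an antisense RNA, Kcnrg, a regulator of voltage-gated potassium channels, and Trpc4ap, a protein that binds a TRP channel. Within the families, some Clcn genes encode exchangers and some Ano genes lipid scramblases rather than channels.

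The cells had received an siRNA against Kctd10 (siKctd10) or a non-targeting siRNA (siControl), with 1 siRNA sequence for each. KCTD10 brings substrates to ubiquitin ligases built on CUL3, and the study's title speaks of actin remodelling by ubiquitin during cell fusion. The 4 groups of 3 libraries were siKctd10 and siControl cells labelled as differentiating myocytes on D2, switched 24 h after siRNA to 2% horse serum and collected 48 h after that switch, and siKctd10 and siControl cells labelled as undifferentiated myoblasts on D0, kept below confluence in 10% fetal bovine serum and collected 48 h after siRNA. D2 and D0 cells thus differ in serum and in time since siRNA as well as in stage. The labels do not say that replicates were separate cultures, and p-values then reflect only how far these libraries spread.

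Ion channels set the resting potential of muscle cells and carry their action potential. Inward rectifier potassium channels hold the membrane negative, voltage-gated sodium channels fire it, and voltage-gated potassium and chloride channels bring it back to rest. In human myoblasts, hyperpolarisation through inward rectifiers precedes differentiation and fusion. Piezo channels and several TRP channels open to stretch or chemical signals and let calcium in, and some anoctamins scramble membrane lipids rather than conduct chloride.

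By estimate from coverage, a library had between 12.51 and 18.08 read pairs (in units of 1000000) assigned to transcripts. Kctd10 itself fell to 32 ± 4.58 TPM in siKctd10 cells on D2, against 283 ± 6.77 TPM in siControl cells, and to 23.1 ± 2.69 TPM on D0, against 266 ± 7.32 TPM (SD, n = 3 each), which left 11.3% and 8.66% (two-sided exact permutation test, p = 0.1 for either day, which no comparison of 3 with 3 can go below). On the second principal component of all genes (10.4% of the variance), the siKctd10 libraries numbered 3 stood apart, at 42.5 on D2 and 42.3 on D0, beyond the other siKctd10 libraries at 1.2 to 20.4 and the siControl libraries at -26.3 to -16.2. Calls that changed without these libraries are named beside the result. All 8 muscle identity markers were expressed and rose on D2 in both arms.

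Of the 51 genes, 26 reached 1 TPM in all 12 libraries and 19 averaged at least 10 TPM over them. The highest averages on the length-normalized TPM scale were those of Ano6 (114 TPM, from values that jumped between replicates as given below), Clcn5 (112 TPM), Trpc4ap (110 TPM), Clcn4 (78.5 TPM), Piezo1 (59.8 TPM) and Kcnj2 (49.4 TPM). Kcnab1, Kcnk13, Kcnn3, Scn10a and Scn4a were among the genes that reached 1 TPM only on D2, while Clcn1 and Kcne3 reached it only on D0 and Trpv6 only in siKctd10 libraries, so that these genes passed the filter through the groups in which they were high. Just inside the filter, Clcn1 and Kcne3 reached 1 TPM in exactly 3 libraries. Just outside it, Kcnmb1 (highest library 1.37 TPM), Kcnk7 (1.24 TPM) and Trpv4 (1.12 TPM) reached 1 TPM in 1 or 2 libraries. The other 100 symbols never reached 1 TPM, and 50 of them were listed at 0 in all 12 libraries. Among these were channels known from muscle: Kcnma1, the large-conductance calcium-activated potassium channel, reached at most 0.0442 TPM, Kcnj11, the pore of the ATP-sensitive channel, at most 0.202 TPM, and Kcnh1, an ether-a-go-go potassium channel studied in human myoblasts, at most 0.435 TPM. Kcna5 and Trpc4 were listed at 0 throughout and Trpc6 reached at most 0.048 TPM.

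The main question of the siRNA comparison was how siKctd10 cells differed from siControl cells on each day. With 1 siRNA sequence, effects of that sequence and of lower Kctd10 cannot be told apart. On D2, 7 of the 51 channel genes rose in siKctd10 cells and 2 fell. Among the genes that rose were the inward rectifier Kcnj2, the sodium channel genes Scn7a and Scn9a, the mechanosensitive channel gene Piezo2, the calcium channel gene Trpv6 and the potassium channel subunit gene Kcnf1, by 1.54-fold to 3.45-fold in mean TPM. Scn4a, the sodium channel of adult skeletal muscle, fell. Calls are at an adjusted p below 0.05 in a limma fit of log2(TPM + 1) over all genes, a scale that understates the change of low genes. The calls were 17.6% of the channel genes, against 4.76% of all 13080 genes (2.83% higher and 1.93% lower). Of the 8 channel genes that did not reach 1 TPM in 3 of 6 siControl libraries, 2 rose, Scn9a and Trpv6. These 2 passed the filter mainly through siKctd10 libraries, so their rise is partly built into their choice. Among the other 43, 5 rose and 2 fell. The groups did not overlap for 22 channel genes (43.1%), against 28.4% of all genes, and the median log2 fold change was 0.24 for the channel genes against 0.079 for all genes.

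**Figure D1:**
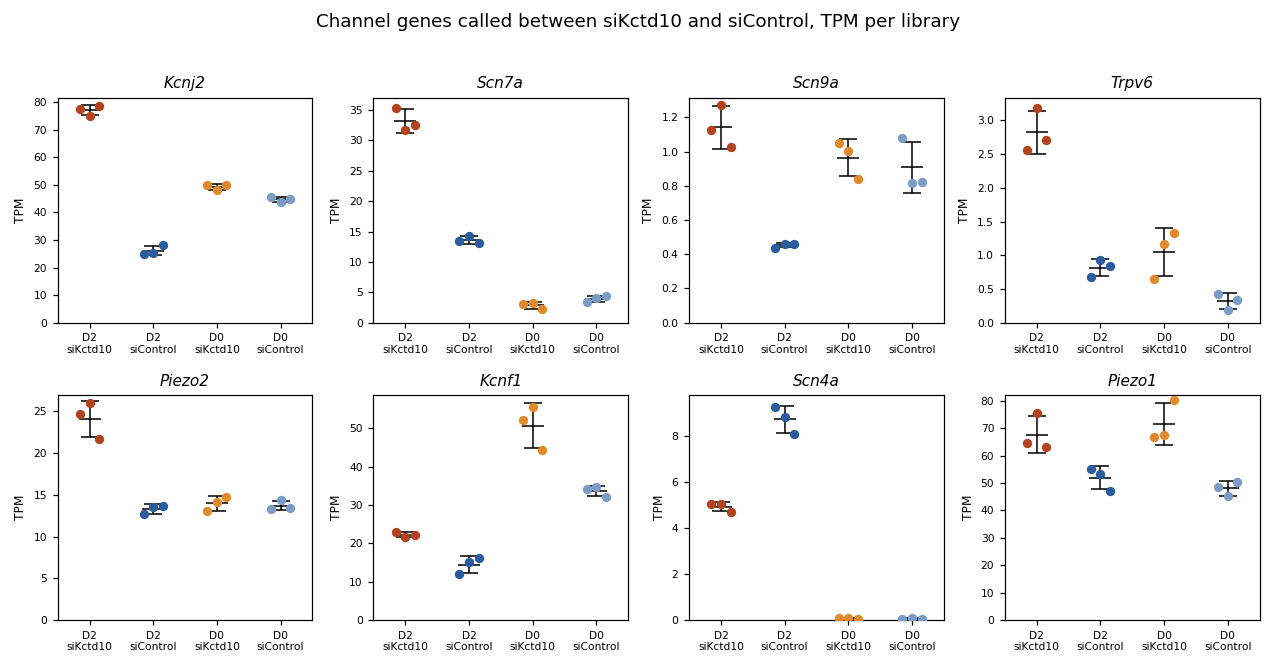
TPM of 8 channel genes called between siKctd10 and siControl cells on either day, with a point for each library and bars for the mean ± SD of 3 libraries per group. On D2 the siKctd10 libraries of Kcnj2 lie between 75.2 and 78.7 TPM, above all siControl libraries, while those of Scn4a lie below.

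Promoter sequences are shown for 5 of the genes called on D2, to set the letters before their starts beside the direction in which they moved. They are the 250 bases before the RefSeq start (build GRCm38.p6), which lay within 100 bases of the start of deposited transcripts that held 97.7% of the TPM of Kcnj2 and all of that of the others. Capitals mark CAGCTG and CAGGTG, forms of the E-box CANNTG read by myogenic factors such as MYOD1, and GGAATG, the core read by TEAD factors, on either strand, so that CAGGTG also appears as CACCTG.
Kcnj2 (chr11:111065914-111066163, plus strand): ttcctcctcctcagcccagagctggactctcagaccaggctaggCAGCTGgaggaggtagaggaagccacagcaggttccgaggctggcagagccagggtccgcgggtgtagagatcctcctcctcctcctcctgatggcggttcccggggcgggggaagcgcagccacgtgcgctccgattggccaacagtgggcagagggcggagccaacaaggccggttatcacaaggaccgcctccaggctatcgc
Scn7a (chr2:66784911-66785160, minus strand): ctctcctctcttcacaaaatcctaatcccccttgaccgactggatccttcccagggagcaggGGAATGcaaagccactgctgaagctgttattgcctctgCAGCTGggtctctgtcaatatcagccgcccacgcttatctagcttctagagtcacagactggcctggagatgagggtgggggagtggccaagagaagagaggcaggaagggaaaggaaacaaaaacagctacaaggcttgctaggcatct
Scn9a (chr2:66634963-66635212, minus strand): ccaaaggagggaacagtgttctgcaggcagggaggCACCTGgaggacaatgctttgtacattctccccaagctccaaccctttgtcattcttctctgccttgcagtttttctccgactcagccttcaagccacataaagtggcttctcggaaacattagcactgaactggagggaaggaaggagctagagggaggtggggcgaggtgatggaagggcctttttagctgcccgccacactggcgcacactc
Trpv6 (chr6:41636406-41636655, minus strand): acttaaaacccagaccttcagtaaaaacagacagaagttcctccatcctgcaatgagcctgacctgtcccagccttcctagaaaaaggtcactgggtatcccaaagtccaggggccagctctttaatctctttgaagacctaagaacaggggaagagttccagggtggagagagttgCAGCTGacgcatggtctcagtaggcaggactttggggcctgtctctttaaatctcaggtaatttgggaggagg
Scn4a (chr11:106349391-106349640, minus strand): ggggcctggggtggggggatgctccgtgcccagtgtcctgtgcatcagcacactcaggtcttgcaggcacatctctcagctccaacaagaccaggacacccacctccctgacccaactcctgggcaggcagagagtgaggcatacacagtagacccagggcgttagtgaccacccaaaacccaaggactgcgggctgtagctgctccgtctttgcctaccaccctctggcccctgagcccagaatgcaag

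Of these genes, Kcnj2, Scn7a and Trpv6, which rose on D2, had a CAGCTG, Scn9a had a CAGGTG, and Scn7a also had a GGAATG, while the window of Scn4a, which fell, held none of these 3 motifs. The windows of Kcnf1, which also rose on D2 and is not printed, and of Piezo1, called higher on D0, held none of them either. A motif thus did not go with every rise. Most channel genes with these motifs were not called between siRNAs on D2. Of the 10 genes with a CAGCTG in some window, only Kcnj2, Scn7a and Trpv6 were called. Of the 16 with a CAGGTG only Scn9a was called, and of the 9 with a GGAATG only Scn7a. RefSeq windows were matched for 42 of the 51 genes, 62 windows in all, since 12 of these genes had 2 to 4 windows that could overlap. CAGCTG stood in 15 of the 62 windows (24.2%), against 13.0% of 32851 windows of all genes, CAGGTG in 20 (32.3%), against 17.2%, and GGAATG in 9 (14.5%), against 12.6%. CANNTG, which includes the first 2 of these motifs, stood in 46 of the 62 windows (74.2%), against 66.2% of all windows. These matches describe the letters of the windows, and binding was not measured.

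Kcnj2 encodes a strong inward rectifier potassium channel (chr11:111066164-111076821, plus strand, mm10). On D2 it measured 77.6, 75.2 and 78.7 TPM in siKctd10 cells, against 24.9, 25.4 and 28.1 TPM in siControl cells. All 3 siKctd10 libraries of this gene stood above all siControl libraries, with 2359 to 2754 estimated read pairs against 661 to 867. Its log2 fold change was 1.53 (SE 0.075, limma adjusted p = 7.8e-06), or 2.95-fold in mean TPM, and stayed between 1.496 and 1.578 when single libraries were left out. On D0 it measured 50.03, 48.1 and 49.8 TPM in siKctd10 cells, against 45.7, 43.9 and 44.9 TPM in siControl cells, which also did not overlap but did not pass the test (log2 fold change 0.14, limma adjusted p = 0.42). Kcnj12, which encodes a related inward rectifier, measured 3.92, 5.32 and 3.86 TPM in siKctd10 cells on D2, against 3.16, 1.43 and 1.05 TPM in siControl cells, and was not called although the groups did not overlap (log2 fold change 0.96, limma adjusted p = 0.12). Kcnj16, the neighbour 38.2 kb upstream of Kcnj2 on the same strand, averaged 0.607 ± 0.348 TPM in siKctd10 cells on D2, against 0.355 ± 0.205 TPM in siControl cells, and was not called either.

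Sodium channel pore genes moved in both directions. Scn7a, which encodes a sodium-sensing channel without the usual voltage dependence (chr2:66673425-66784914, minus strand), measured 35.4, 31.7 and 32.5 TPM in siKctd10 cells on D2, against 13.4, 14.3 and 13.1 TPM in siControl cells. The libraries within each group lay close together, and the log2 fold change was 1.23 (SE 0.13, limma adjusted p = 0.0012).

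Scn9a, a sodium channel of pain-sensing neurons that lies 38.5 kb from Scn7a (chr2:66480080-66634962, minus strand), was low in all groups. It measured 1.12, 1.27 and 1.03 TPM in siKctd10 cells on D2, against 0.439, 0.461 and 0.463 TPM in siControl cells, resting on an estimated 59 to 85 read pairs in siKctd10 libraries and 22 to 27 in siControl libraries. The log2 fold change was 0.56 (SE 0.11, limma adjusted p = 0.016), and the call was lost (adjusted p up to 0.059) without siKctd10 library 2 or without siControl library 1 or 2, and with only these groups in the fit (adjusted p = 0.095). Scn4a went the other way (chr11:106318592-106353288, minus strand), with 5.02, 5.05 and 4.70 TPM in siKctd10 cells on D2, against 9.24, 8.83 and 8.06 TPM in siControl cells. The siKctd10 libraries all stood lower than the siControl libraries, and the log2 fold change was -0.71 (SE 0.098, limma adjusted p = 0.0042). The call was lost with a pseudocount of 0.1 (adjusted p = 0.092) and when only these groups were fitted (adjusted p = 0.054).

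Scn10a, a sodium channel of sensory neurons, measured 3.13, 3.14 and 3.72 TPM in siKctd10 cells on D2, against 2.51, 2.33 and 2.35 TPM in siControl cells. Its groups did not overlap, but it did not pass the test (log2 fold change 0.35, limma adjusted p = 0.16).

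Voltage-gated potassium channel genes included Kcnf1, called on D2. Kcnf1, which encodes an electrically silent subunit that modifies delayed rectifiers (chr12:17172100-17176888, minus strand), measured 23.0, 21.7 and 22.1 TPM in siKctd10 cells, against 11.9, 15.1 and 16.3 TPM in siControl cells. Its groups did not overlap, and the log2 fold change was 0.60 (SE 0.13, limma adjusted p = 0.027). That call held in 1 of 6 fits without a library of these groups, being lost without any of the 3 siKctd10 libraries and without siControl library 1 or 2 (adjusted p up to 0.085), and also with voom on estimated read pairs (adjusted p = 0.062), only these groups in the fit (adjusted p = 0.12), the replicate number as a block (adjusted p = 0.053) and without both siKctd10 libraries numbered 3 (adjusted p = 0.057). Kcnh2, a potassium channel that repolarises the heart, measured 4.40, 3.98 and 3.21 TPM in siKctd10 cells, against 2.39, 1.91 and 3.07 TPM in siControl cells. Its groups did not overlap, and it was not called (log2 fold change 0.50, limma adjusted p = 0.12).

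Trpv6 encodes a calcium-selective channel best known from gut and kidney epithelium (chr6:41620624-41636405, minus strand). It measured 2.57, 3.19 and 2.71 TPM in siKctd10 cells on D2, against 0.685, 0.929 and 0.839 TPM in siControl cells, resting on an estimated 43 to 64 read pairs in siKctd10 libraries and 12 to 14 in siControl libraries. The groups were far apart, and the log2 fold change was 1.07 (SE 0.15, limma adjusted p = 0.0045), or 3.45-fold in mean TPM. On D0 it measured 0.647, 1.16 and 1.33 TPM in siKctd10 cells, against 0.424, 0.187 and 0.339 TPM in siControl cells, again without overlap, and it missed the threshold (log2 fold change 0.62, limma adjusted p = 0.068), passing with a pseudocount of 0.1 (adjusted p = 0.049). No siControl library reached 1 TPM on either day, so Trpv6 passed the filter through the siKctd10 libraries alone.

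The Piezo genes, whose products open when the membrane is stretched, were called on different days. Piezo2 measured 24.7, 25.9 and 21.7 TPM in siKctd10 cells on D2, against 12.7, 13.5 and 13.7 TPM in siControl cells. The groups did not overlap, and the log2 fold change was 0.81 (SE 0.10, limma adjusted p = 0.0029). On D0 its groups overlapped, with 13.0, 14.2 and 14.8 TPM in siKctd10 cells, against 13.3, 14.4 and 13.5 TPM in siControl cells.

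Piezo1 was the only channel gene called on D0 (chr8:122481698-122551329, minus strand), where 2.45% of all genes were called (1.48% higher and 0.963% lower). It measured 66.9, 67.4 and 80.4 TPM in siKctd10 cells on D0, against 48.4, 45.2 and 50.5 TPM in siControl cells. The groups did not overlap, and the log2 fold change was 0.56 (SE 0.11, limma adjusted p = 0.028), but the call was lost in each of the 6 fits that left out a library of these groups (adjusted p 0.053 to 0.10). It was also lost without both siKctd10 libraries numbered 3 (adjusted p = 0.078), with quantile normalization (adjusted p = 0.058), with only these groups in the fit (adjusted p = 0.13) and with the replicate number as a block (adjusted p = 0.059). On D2 it measured 64.6, 75.4 and 63.1 TPM in siKctd10 cells, against 55.3, 53.2 and 47.2 TPM in siControl cells, without overlap and without passing the test (log2 fold change 0.38, limma adjusted p = 0.090). A test of the difference between the days did not call Piezo1 (limma adjusted p = 0.77).

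Other channel genes on D0 lay close to the threshold or far from it. Kcnf1 measured 52.2, 55.6 and 44.3 TPM in siKctd10 cells, against 34.2, 34.7 and 32.2 TPM in siControl cells. Its groups did not overlap, and it missed the threshold narrowly (log2 fold change 0.57, limma adjusted p = 0.051). It passed with a filter at mean TPM 5, median-ratio scaling or limma without trend (adjusted p 0.045 to 0.049). In single-library fits, Trpv6 passed without siKctd10 library 1 (adjusted p = 0.036), Kcnn4 without siKctd10 library 2 (adjusted p = 0.048) and Kcnf1 without siKctd10 library 3 (adjusted p = 0.046) or without D2 siControl library 1 (adjusted p = 0.032). In all, 14 of the 51 genes (27.5%) had no overlap between the groups on D0, against 23.2% of all genes, and the median log2 fold change of the channel genes was 0.032 against 0.045 for all genes.

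**Figure D2:**
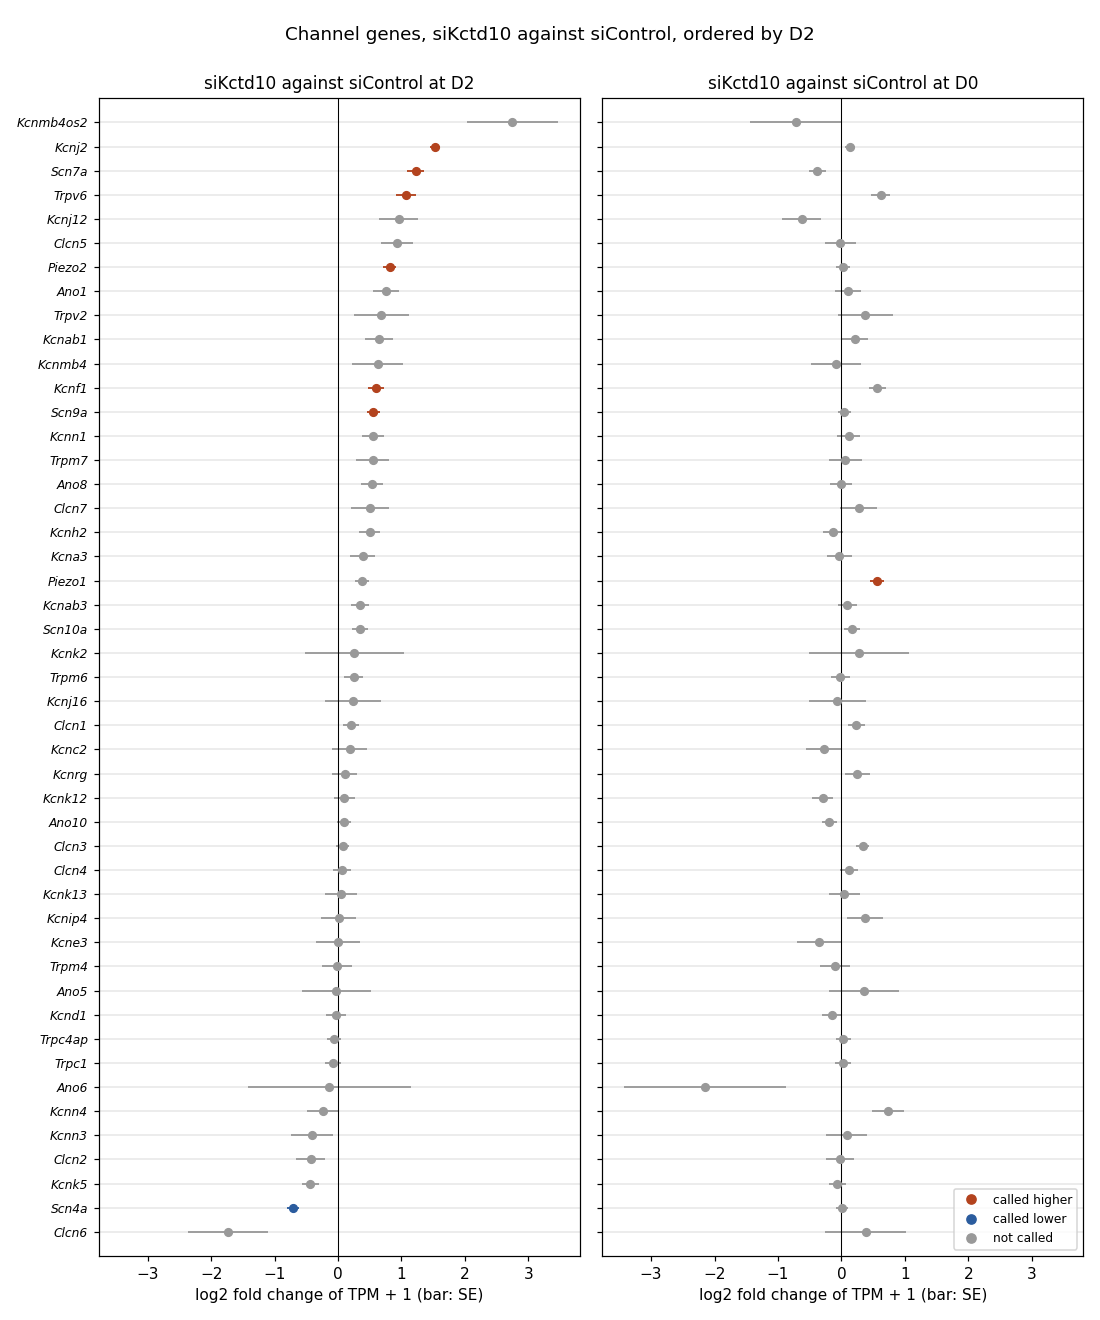
Log2 fold change of TPM + 1 between siKctd10 and siControl cells for 47 of the 51 genes, on D2 at left and D0 at right, with bars for the SE and genes ordered by the D2 value. Called genes are coloured: 7 on D2, of which Kcnj2 is highest at 1.53 and Scn4a lowest at -0.71, and 1 on D0. The grey genes at the ends, Kcnmb4os2 at 2.75 and Clcn6 at -1.74, were not called.

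Muscle markers moved with the siRNA on D2. Of the 8 markers, Myod1, Myf5, Myog and Mymk fell in siKctd10 cells (log2 fold changes -0.37, -0.57, -0.75 and -0.92, limma adjusted p 0.005 to 0.016). The other 4, Des, Cdh15, Myh3 and Ckm, were not called. The 8 summed to 1790 to 2270 TPM in siKctd10 libraries, against 2520 to 2640 TPM in siControl libraries. On D0 the sums were 531 to 680 TPM in siKctd10 libraries, against 544 to 548 TPM in siControl libraries. In bulk RNA, fewer differentiated cells and less RNA per cell cannot be told apart, and the part of this difference in the channel results was not tested. Markers of other cell types that use sodium channels passed the filter in part. Of 9 neural and glial markers 3 passed, with Snap25 and Gfap at 0 in all libraries. Their sum on D2 was 79.1 to 93.4 TPM in siKctd10 cells, against 98.7 to 117 TPM in siControl cells, most of it Tubb3. On D0 the sum was 55.7 to 60.2 TPM in siKctd10 cells, against 99.3 to 109 TPM in siControl cells. Of the 3 that passed, 1 was called lower in siKctd10 cells on each day. Of 8 cardiac and smooth muscle markers 4 passed, with Myl7 at 0, and their sum on D2 was 40.6 to 64.3 TPM in siKctd10 cells, against 48.5 to 102 TPM in siControl cells, and on D0 34.2 to 34.4 TPM, against 14.3 to 36.5 TPM. Of 8 leukocyte and endothelial markers 1 passed, with Ptprc and Kdr at 0, and their sum stayed at 3.28 TPM or below in every library.

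The effect of siKctd10 differed between the days, by the test of the interaction of day and siRNA, for 3 channel genes, where 0.772% of all genes were called (0.375% higher and 0.398% lower). Kcnj2 had the smallest adjusted p, with a difference of 1.39 on the log2 scale between the D2 and the D0 effect (SE 0.11, limma adjusted p = 0.00066). For Scn7a, the difference was 1.60 (SE 0.19, limma adjusted p = 0.0052): on D0 it measured 3.06, 3.19 and 2.26 TPM in siKctd10 cells, against 3.44, 4.06 and 4.41 TPM in siControl cells, so that the siKctd10 libraries lay below the siControl libraries on D0 and above them on D2. Both differences were called in all 12 fits that left out a library. Piezo2 passed narrowly, with a difference of 0.79 (SE 0.15, limma adjusted p = 0.048), and kept the call in 1 of 12 such fits, the fit without D2 siKctd10 library 3. Its adjusted p was 0.059 without both siKctd10 libraries numbered 3, 0.060 with a pseudocount of 0.1 and 0.099 with the replicate number as a block. Scn4a (-0.72, limma adjusted p = 0.050) lay at the threshold and was not called.

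A further question was how channel genes moved between D0 and D2, and whether that happened in both siRNA arms. Between D2 and D0, 28 channel genes rose and 5 fell in siKctd10 cells, where 36.4% of all genes were called (23.1% higher and 13.3% lower). In siControl cells 14 rose and 7 fell, where 35.5% were called (21.4% higher and 14% lower). The arms share no library. A call in 1 arm only does not show that the arms differ. Of the genes called in 1 arm only, the interaction test of day and siRNA called Piezo2 alone. The groups did not overlap for 38 of the 51 genes in siKctd10 cells (74.5%, against 48.4% of all genes) and for 29 in siControl cells (56.9%, against 52.3%). The median log2 fold change of the channel genes was 0.74 in siKctd10 cells, against 0.12 for all genes, and 0.29 in siControl cells, against 0.091. Scaling libraries by median ratios set the median of all genes in siKctd10 cells to 0.003, and 27 channel genes then rose and 8 fell in that arm, with Clcn3, Clcn6 and Kcnab3 added to the falls and Clcn4 no longer called. Of the 14 genes that did not reach 1 TPM in 3 of 6 D0 libraries, and so passed the filter mainly through D2, 11 rose in siKctd10 cells and 9 in siControl cells. Among the other 37, 17 rose and 5 fell in siKctd10 cells, and 5 rose and 7 fell in siControl cells. These falls include Clcn1 in both arms, which reached 1 TPM only on D0, so that its fall is partly built into its choice. The like cut on D2 libraries was not made.

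Kcnj2 was called in opposite directions in the arms. It rose on D2 in siKctd10 cells (log2 fold change 0.64, SE 0.075, limma adjusted p = 0.00011) and fell on D2 in siControl cells (log2 fold change -0.76, SE 0.075, limma adjusted p = 3.3e-05), with the TPM given above, and in neither arm did the days overlap. Kcnj12 rose on D2 in siKctd10 cells (log2 fold change 1.45, SE 0.30, limma adjusted p = 0.0043), with 3.92, 5.32 and 3.86 TPM on D2, against 1.48, 0.804 and 0.651 TPM on D0. In siControl cells its D0 libraries, at 2.78, 1.11 and 2.41 TPM, overlapped the D2 libraries, and it was not called (log2 fold change -0.13, limma adjusted p = 0.78). Of the other 18 genes called in both arms, 14 rose and 4 fell in both. These 18 made up 54.5% of the calls in siKctd10 cells and 85.7% of those in siControl cells. The like shares over all genes, of which 36.4% and 35.5% were called, were not computed. The 2 shares therefore cannot be read as a trait of channel genes.

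**Figure D3:**
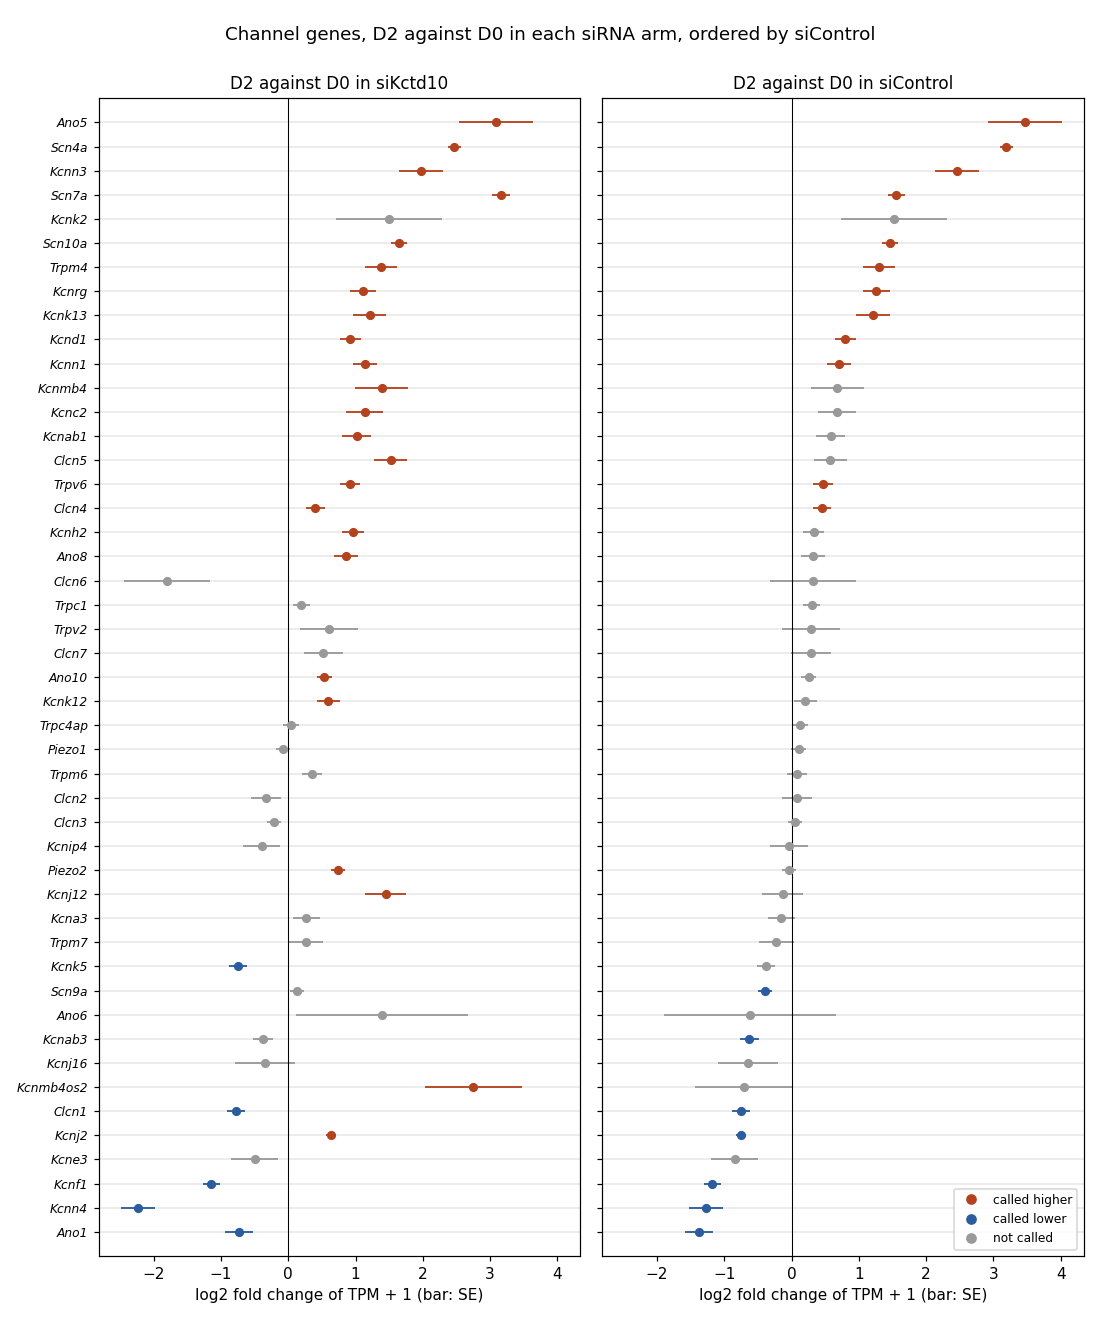
Log2 fold change of TPM + 1 between D2 and D0 for 47 of the 51 genes, in siKctd10 cells at left and siControl cells at right, with bars for the SE and genes ordered by the siControl value. Ano5 and Scn4a lead the rises in siControl cells at 3.47 and 3.19, and Kcnj2 is coloured as higher at left and lower at right.

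Among sodium channel pore genes, Scn4a rose most between the days in siControl cells on the log2 scale of TPM + 1. This gene measured 5.02, 5.05 and 4.70 TPM on D2 in siKctd10 cells, against 0.103, 0.070 and 0.036 TPM on D0, or 2.47 as log2 fold change (SE 0.098, limma adjusted p = 1.2e-07). In siControl cells it measured 9.24, 8.83 and 8.06 TPM on D2, against 0.050, 0.089 and 0.043 TPM on D0, or 3.19 as log2 fold change (limma adjusted p = 3.1e-08). The days were far apart in both arms, and on D0 each library rested on 1 to 4 estimated read pairs. Scn7a rose by 3.16 on the log2 scale in siKctd10 cells (limma adjusted p = 1.5e-07) and by 1.56 in siControl cells (limma adjusted p = 1.1e-05), from the values given above. Scn10a measured 3.13, 3.14 and 3.72 TPM on D2 in siKctd10 cells, against 0.36, 0.22 and 0.598 TPM on D0, and 2.51, 2.33 and 2.35 TPM on D2 in siControl cells, against 0.298, 0.198 and 0.204 TPM on D0. It rose in both arms without overlap (log2 fold changes 1.64 and 1.46, limma adjusted p = 5.8e-06 and 1.1e-05). Scn4a and Scn10a reached 1 TPM only on D2, so their rises are partly built into their choice.

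Scn9a fell in siControl cells (log2 fold change -0.39, SE 0.11, limma adjusted p = 0.016), with 0.439, 0.461 and 0.463 TPM on D2, against 1.08, 0.816 and 0.825 TPM on D0, and lost that call without D0 siControl library 1 (adjusted p = 0.062) and with only these groups in the fit (adjusted p = 0.051). In siKctd10 cells its days overlapped, with 1.12, 1.27 and 1.03 TPM on D2, against 1.05, 1.00 and 0.842 TPM on D0.

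Among voltage-gated potassium channel genes, Kcnd1, which carries a fast transient current, rose in both arms (0.92 and 0.80, limma adjusted p = 0.0012 and 0.0029), while Kcnh2 rose in siKctd10 cells (0.96, limma adjusted p = 0.0011) and was not called in siControl cells (0.33, limma adjusted p = 0.15). Kcnc2 rose in siKctd10 cells (1.13, limma adjusted p = 0.010), a call lost without both libraries numbered 3 (adjusted p = 0.095), and passed in siControl cells only without D2 siControl library 3 (adjusted p = 0.0077). Kcnf1 fell in both arms, with log2 fold changes of -1.15 and -1.18 (limma adjusted p = 8e-05 and 6.3e-05), and its D0 and D2 libraries did not overlap within either arm. Kcna3 was called in neither arm. On D0 Kcnh2 overlapped between the groups, with 1.65, 1.23 and 1.60 TPM in siKctd10 cells, against 1.48, 2.04 and 1.68 TPM in siControl cells.

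The calcium-activated potassium channel genes split by conductance. The small-conductance genes Kcnn1 and Kcnn3 rose and the intermediate-conductance gene Kcnn4, known from proliferating cells, fell in both arms. Kcnn1 measured 2.08, 3.40 and 3.89 TPM on D2 in siKctd10 cells, against 1.101, 0.593 and 0.874 TPM on D0 (log2 fold change 1.14, SE 0.18, limma adjusted p = 0.00073). In siControl cells it measured 1.89, 1.62 and 1.79 TPM on D2, against 0.798, 0.746 and 0.574 TPM on D0 (log2 fold change 0.70, SE 0.18, limma adjusted p = 0.012), a call lost with quantile normalization (0.41, adjusted p = 0.094). The days did not overlap for Kcnn1 in either arm. Kcnn3, which immature and denervated muscle expresses, measured 6.53, 1.67 and 6.15 TPM on D2 in siKctd10 cells, against 0.45, 0.337 and 0.236 TPM on D0 (log2 fold change 1.97, limma adjusted p = 0.0011). In siControl cells it measured 5.86, 5.91 and 6.07 TPM on D2, against 0.377, 0.202 and 0.223 TPM on D0 (log2 fold change 2.46, limma adjusted p = 0.00026). The second D2 siKctd10 library lay well below the others. Kcnn3 reached 1 TPM only on D2 and Kcnn1 mainly there, so their rises are partly built into their choice. Kcnn4 measured 16.0, 11.5 and 15.6 TPM on D2 in siKctd10 cells, against 99.3, 46.5 and 77.1 TPM on D0 (log2 fold change -2.24, SE 0.25, limma adjusted p = 9e-05). In siControl cells it measured 19.9, 17.2 and 14.1 TPM on D2, against 44.4, 44.9 and 38.0 TPM on D0 (log2 fold change -1.28, SE 0.25, limma adjusted p = 0.0031), and the days did not overlap in either arm. The test of the difference between the arms did not call Kcnn4 (limma adjusted p = 0.38).

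Among 2-pore potassium channel genes, which carry background currents, Kcnk13 rose in both arms. It measured 0.676, 1.36 and 2.63 TPM on D2 in siKctd10 cells, against 0.164, 0 and 0 TPM on D0, and 1.92, 1.118 and 1.105 TPM on D2 in siControl cells, against 0, 0.056 and 0 TPM on D0 (log2 fold change 1.21 in each arm, limma adjusted p = 0.0038 in each). Its D0 libraries rested on 0 to 3 estimated read pairs. Kcnk13 reached 1 TPM only on D2, so its rise is partly built into its choice. Kcnk5 fell in siKctd10 cells (log2 fold change -0.75, limma adjusted p = 0.0019) and was not called in siControl cells. There it passed without D2 siControl library 3 (-0.50, adjusted p = 0.020) and with median-ratio scaling, quantile normalization, limma without trend or voom (adjusted p 0.0088 to 0.039). Kcnk12 rose in siKctd10 cells (0.60, limma adjusted p = 0.018), a call lost without D0 siKctd10 library 3, D2 siKctd10 library 1 or D2 siKctd10 library 2 (adjusted p up to 0.065). It was also lost with only these groups in the fit (adjusted p = 0.080) and with quantile normalization (0.29, adjusted p = 0.20). Kcnk2, a stretch-sensitive background channel gene, was called in neither arm and varied strongly between replicates.

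Of the 6 auxiliary and regulatory genes of potassium channels, 3 rose in siKctd10 cells, and 1 rose and 1 fell in siControl cells. Kcnrg measured 2.13, 3.36 and 3.17 TPM on D2 in siKctd10 cells, against 1.07, 0.64 and 0.643 TPM on D0, and 1.90, 2.68 and 3.27 TPM on D2 in siControl cells, against 0.752, 0.40 and 0.348 TPM on D0. It rose in both arms without overlap (log2 fold changes 1.11 and 1.26, limma adjusted p = 0.0015 and 0.00067). Kcnab3, a beta subunit, fell in siControl cells (log2 fold change -0.63, limma adjusted p = 0.0069), with 1.92, 2.54 and 2.58 TPM on D2, against 3.81, 5.01 and 3.73 TPM on D0, and was not called in siKctd10 cells (-0.38, limma adjusted p = 0.069), where it measured 3.36, 3.59 and 2.83 TPM on D2, against 4.21, 4.36 and 4.97 TPM on D0. It passed there with median-ratio scaling, quantile normalization, voom or limma without trend (adjusted p 0.0044 to 0.050). Kcnab1, another beta subunit, rose in siKctd10 cells (1.02, limma adjusted p = 0.005). Kcnab1 passed in siControl cells with a pseudocount of 0.1, the replicate number as a block or without both siKctd10 libraries numbered 3 (adjusted p 0.040 to 0.047). Kcnab1 reached 1 TPM only on D2 and Kcnrg mainly there, so their rises are partly built into their choice. Kcne3, a small subunit of voltage-gated channels, was listed at 0 in all 6 D2 libraries and in the third D0 library of each arm, with 1.01 and 0.412 TPM in the other D0 siKctd10 libraries and 1.89 and 1.02 TPM in the other D0 siControl libraries. It was called in neither arm, except in siControl cells without D0 siControl library 3, which was listed at 0 (adjusted p = 0.0063). Kcne3 rested on 0 to 4 estimated read pairs per library, from 1 transcript of 312 bases matched by exon overlap.

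Kcnmb4, a subunit of large-conductance calcium-activated channels whose pore gene Kcnma1 was near 0, rose in siKctd10 cells (log2 fold change 1.39, SE 0.40, limma adjusted p = 0.021). That call was lost without D0 siKctd10 library 3, D2 siKctd10 library 1 or D2 siKctd10 library 3 (adjusted p up to 0.071), and without both libraries numbered 3 (adjusted p = 0.16). Kcnmb4os2, which overlaps Kcnmb4 on the opposite strand, was listed at 11.5, 10.9 and 1.05 TPM on D2 in siKctd10 cells and at 3.39 TPM in the first D0 siControl library, and at 0 in the other 8 libraries. It was called between the days in siKctd10 cells (limma adjusted p = 0.014), without D2 siKctd10 library 1 or 2 no longer (adjusted p up to 0.054), and no fold is given because the D0 libraries were at 0. Kcnmb4os2 passed the filter mainly through the D2 siKctd10 libraries, so that call is partly built into its choice. The sources do not say whether reads were assigned by strand, so reads of Kcnmb4 and Kcnmb4os2 cannot be told apart where they overlap.

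Of the 7 CLC chloride channel and transporter genes, 2 rose and 1 fell in siKctd10 cells, and 1 rose and 1 fell in siControl cells. Clcn1, the main chloride channel of adult muscle, fell in both arms, with 0.267, 0.368 and 0.341 TPM on D2 in siKctd10 cells, against 1.40, 1.00 and 1.46 TPM on D0, and 0.19, 0.101 and 0.168 TPM on D2 in siControl cells, against 0.861, 0.726 and 1.26 TPM on D0. The days did not overlap (log2 fold changes -0.78 and -0.75, limma adjusted p = 0.0011 and 0.0014), at 2 to 32 estimated read pairs per library. Clcn1 reached 1 TPM only on D0, so its fall is partly built into its choice. Clcn5, an endosomal chloride and proton exchanger, rose in siKctd10 cells (log2 fold change 1.52, SE 0.25, limma adjusted p = 0.00097), with 175, 216 and 213 TPM on D2, against 104, 61.7 and 51.3 TPM on D0. In siControl cells it measured 93.9, 110 and 111 TPM on D2, against 85.0, 74.1 and 54.4 TPM on D0, without overlap and not called (0.58, limma adjusted p = 0.10), except without D0 siKctd10 library 1 (adjusted p = 0.027). Between siKctd10 and siControl cells on D2 the Clcn5 groups were also apart and not called (0.93, limma adjusted p = 0.069), except without D0 siKctd10 library 1 (adjusted p = 0.021) or D0 siKctd10 library 3 (adjusted p = 0.047), or with only these groups in the fit (adjusted p = 0.032). Clcn4, a related exchanger, rose in both arms (0.40 and 0.45, limma adjusted p = 0.047 and 0.029) and lost that call without most single libraries. In siKctd10 cells it held only without D0 siKctd10 library 1 or D0 siControl library 1 or 2 (otherwise adjusted p up to 0.14, and a log2 fold change of 0.25 without D0 siKctd10 library 3), and in siControl cells it was lost without any D2 siControl library or D0 siControl library 2 or 3 (adjusted p up to 0.10). The call of Clcn4 was also lost with 8 other settings in siKctd10 cells (adjusted p 0.051 to 0.18, and a log2 fold change of 0.26 without both libraries numbered 3) and with 3 in siControl cells (adjusted p 0.058 to 0.083). Clcn2, Clcn3 and Clcn7 were called in neither arm. Clcn3 was called lower in siKctd10 cells with median-ratio scaling, quantile normalization or voom (adjusted p 0.016 to 0.038).

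Of the 5 anoctamin genes, 3 rose and 1 fell in siKctd10 cells, and 1 rose and 1 fell in siControl cells. Ano5, mutated in a human muscular dystrophy and needed for repair of the muscle membrane, measured 20.4, 20.1 and 36.4 TPM on D2 in siKctd10 cells, against 1.02, 1.39 and 4.70 TPM on D0 (log2 fold change 3.09, SE 0.55, limma adjusted p = 0.0016). In siControl cells it measured 15.7, 15.9 and 62.0 TPM on D2, against 1.21, 1.34 and 1.54 TPM on D0 (log2 fold change 3.47, SE 0.55, limma adjusted p = 0.00076), and the days were apart in both arms. Ano1, a calcium-activated chloride channel, measured 1.88, 1.89 and 2.17 TPM on D2 in siKctd10 cells, against 3.19, 3.80 and 4.99 TPM on D0, and 0.396, 0.816 and 1.17 TPM on D2 in siControl cells, against 2.87, 3.37 and 4.77 TPM on D0. It fell in both arms (-0.73 and -1.38, limma adjusted p = 0.021 and 0.00057), and in siKctd10 cells the call was lost without D0 library 3, D2 library 1 or D2 library 2 (adjusted p up to 0.072). It was also lost with a pseudocount of 0.1 (adjusted p = 0.053) and without both libraries numbered 3 (adjusted p = 0.098). On D2 the siKctd10 libraries of Ano1 all lay above the siControl libraries, and the difference was not called (0.75, limma adjusted p = 0.078), except with the replicate number as a block (adjusted p = 0.023). Ano8 and Ano10 rose in siKctd10 cells (0.86 and 0.53, limma adjusted p = 0.0036 and 0.0046) and were not called in siControl cells. For Ano8 the direction rests on a transcript matched by exon overlap that holds 90.0% of its TPM: with transcripts matched by identical introns only, the log2 fold change was -1.22 (adjusted p = 0.074). Ano8 was then called lower in siKctd10 than in siControl cells on D2 (-2.20, adjusted p = 0.029).

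Of the 6 TRP channel genes, Trpm4 and Trpv6 were called between the days. Trpm4, a calcium-activated cation channel that passes sodium, measured 13.1, 14.5 and 15.7 TPM on D2 in siKctd10 cells, against 4.22, 4.09 and 6.90 TPM on D0, and 16.6, 13.2 and 14.2 TPM on D2 in siControl cells, against 6.91, 6.19 and 3.504 TPM on D0. It rose in both arms without overlap (log2 fold changes 1.37 and 1.296, limma adjusted p = 0.0014 and 0.0019). Trpv6 rose in both arms (0.91 and 0.47, limma adjusted p = 0.00099 and 0.035), and in siControl cells kept that call in 2 of 6 fits without a library of the arm, being lost without D0 or D2 siControl library 2 or 3 (adjusted p up to 0.12). It was also lost with quantile normalization (0.18, adjusted p = 0.41). Trpv6 was among the genes that passed the filter mainly through D2, so its rise is partly built into its choice. Piezo2 rose on D2 in siKctd10 cells (0.74, SE 0.10, limma adjusted p = 0.00034), while in siControl cells it measured 12.7, 13.5 and 13.7 TPM on D2, against 13.3, 14.4 and 13.5 TPM on D0, and was not called (limma adjusted p = 0.79).

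Trpc1, a subunit of calcium entry channels, was called in no comparison, with 4.74, 4.30 and 3.98 TPM in siKctd10 cells on D2, against 4.90, 4.64 and 4.33 TPM in siControl cells, and 3.60, 3.24 and 4.17 TPM in siKctd10 cells on D0, against 3.71, 3.17 and 3.85 TPM in siControl cells. Trpm7, a channel joined to a kinase that carries magnesium, measured 46.8, 54.4 and 63.5 TPM in siKctd10 cells on D2, against 32.6, 32.0 and 48.6 TPM in siControl cells, and was not called (log2 fold change 0.55, limma adjusted p = 0.29). On D0 Trpm7 overlapped between the groups, with 42.1, 51.2 and 43.4 TPM in siKctd10 cells, against 29.5, 44.6 and 62.3 TPM in siControl cells. Trpv2, a stretch-sensitive channel of muscle, was listed at 0 in the first D2 siControl library and the second D0 siControl library. It measured 2.38, 2.64 and 0.833 TPM in siKctd10 cells on D2, against 0, 1.28 and 1.39 TPM in siControl cells, and 1.3, 0.761 and 0.601 TPM in siKctd10 cells on D0, against 1.38, 0 and 0.249 TPM in siControl cells, and was called in no comparison. Trpc4ap, the TRP channel binding protein, ranged between 99.1 and 129 TPM over the 12 libraries and was called in no comparison, nor were Kcnj16 and Kcnip4, a subunit that binds fast potassium channels.

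The deposited values of several channel genes jumped between replicates of 1 group. Of the 51 genes, 11 spread more than 3-fold inside some group that averaged at least 1 TPM. Ano6, a lipid scramblase that some cells need for fusion, measured 27.9, 34.1 and 308 TPM in siKctd10 cells on D2, against 32.3, 268 and 45.3 TPM in siControl cells, and 28.5, 37.4 and 14.1 TPM in siKctd10 cells on D0, against 280, 18.0 and 279 TPM in siControl cells. Libraries at 268 to 308 TPM stood beside libraries under 50 TPM in 3 of the 4 groups, and 1 transcript held all of the TPM of Ano6. No comparison called it, and its SE of 1.28 on the log2 scale was the largest among these genes.

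Clcn6, a lysosomal relative of Clcn5, measured 4.30, 2.98 and 32.4 TPM in siKctd10 cells on D2, against 25.2, 33.0 and 28.4 TPM in siControl cells, and 19.5 to 32.0 TPM in the 6 D0 libraries. With the third D2 siKctd10 library left out, Clcn6 was called lower on D2 (log2 fold change -2.69, limma adjusted p = 0.00028), lower on D2 than on D0 in siKctd10 cells (-2.755, limma adjusted p = 1.1e-05) and in the interaction (-3.07, limma adjusted p = 0.0018). With that library, its log2 fold change against siControl on D2 was -1.74 (limma adjusted p = 0.17). Between the days in siKctd10 cells it then passed with median-ratio scaling, quantile normalization, limma without trend or voom (adjusted p 0.024 to 0.049). Kcnk2 measured 8.76, 0.61 and 9.91 TPM in siKctd10 cells on D2, against 0.538, 6.92 and 7.21 TPM in siControl cells, and 0.542 to 1.46 TPM in the 6 D0 libraries. In each arm 1 D2 library stayed in the D0 range, and Kcnk2 passed between the days only without it (limma adjusted p = 0.020 without D2 siKctd10 library 2, and 0.036 without D2 siControl library 1). Single-library fits also called Kcnn1 higher in siKctd10 cells on D2 without D2 siKctd10 library 1 (0.75, limma adjusted p = 0.036), Kcnmb4os2 without D0 siControl library 1 or D2 siKctd10 library 3 (adjusted p = 0.039 and 0.014, and 0.048 in the interaction without D2 siKctd10 library 3) and Trpm6 between the days in siKctd10 cells without D2 library 3 (0.50, adjusted p = 0.017). Kcnmb4os2 was also called on D2 with a pseudocount of 0.1 (adjusted p = 0.047) and without both siKctd10 libraries numbered 3 (adjusted p = 0.023). Trpm6 was called between the days without these libraries (adjusted p = 0.043).

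**Figure D4:**
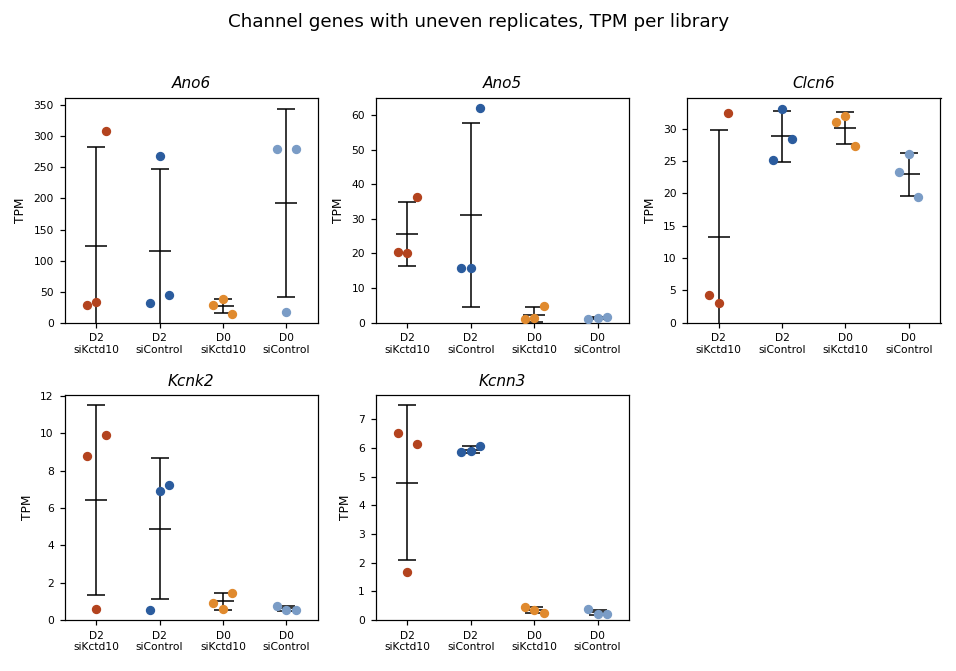
TPM of 5 channel genes whose replicates spread more than 3-fold inside some group, with a point for each library and bars for the mean ± SD of 3 libraries per group (bars that pass 0 end at the axis). Libraries of 1 group fall on separate levels, as for Ano6 in siControl cells on D0 at 18.0, 279 and 280 TPM.

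Other genes of ion transport were set beside these 51. Of 51 other ion channel genes that passed the filter (calcium, acetylcholine receptor, purinergic and volume-regulated channels among them), 2 rose and 2 fell in siKctd10 cells on D2. The chloride channel gene Best1 rose (log2 fold change 1.08, limma adjusted p = 0.0064), as did Ttyh3 (0.58, limma adjusted p = 0.018), while Clic5 (-0.47, limma adjusted p = 0.036) and Tmem38a, a potassium channel of the sarcoplasmic reticulum (-0.57, limma adjusted p = 0.036), fell. Of 28 pump, cotransporter and trafficking genes, the potassium and chloride cotransporter Slc12a7 was the only call on D2 (0.72, limma adjusted p = 0.006). On D0 the channel list gave 0 calls and the pump and trafficking list 1, for Ostm1, a partner of the lysosomal exchanger Clcn7 (0.52). Between the days, 20 of the other channel genes rose and 5 fell in siKctd10 cells, and 22 rose and 6 fell in siControl cells. Over all genes, 36.4% were called between the days in siKctd10 cells and 35.5% in siControl cells. Between siRNAs, 4.76% of all genes were called on D2 and 2.45% on D0.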

How the data were processed

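Poly(A) RNA of 12 C2C12 libraries in 4 groups of 3 was analysed, with groups taken from the labels. Per the file headers, the authors estimated coverage, FPKM and TPM for 63759 annotated transcripts with StringTie 1.3.3b. HISAT, SAMtools, DESeq2, StringTie 1.1.3 and the build mm10 are listed in the submitters' processing notes, so which StringTie version made the values is not known here. No deposited read counts were used, so no count test gave the results.

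Transcripts were matched to GENCODE genes on GRCm38 (mm10) where introns were identical (42629) or where exons overlapped over 50% or more of their bases (13502), and 7628 stayed unmatched. Gene TPM is the sum over matched transcripts, so an estimate that moves reads between transcripts changes it. Genes at 1 TPM or more in at least 3 libraries were kept (13080). A limma 3.58.1 model in R 4.3.3 with 1 mean for each of the 4 groups was fitted to log2(TPM + 1), with robust trended variances and 8 residual degrees of freedom. Tests were two-sided, adjusted over all kept genes by Benjamini-Hochberg, with calls below 0.05. Adjusted p-values without another tool named are from limma. The procedure was tested on simulated data.

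Read pairs were estimated from the deposited coverage and transcript length at 202 bases per pair, which limits the precision of genes with few pairs, and no counting interval was computed. Promoter sequences are from RefSeq (GRCm38.p6), matched by symbol.

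Values in every library are given for genes called between siRNAs or in the interaction, for the 10 largest rises and up to 10 largest falls between days in siControl cells, and for measured channels best known from muscle. Some genes that these rules name are in the counts but are not reported here. Others are named by role, or because leaving out a library changed their call, after their values were seen. The genes and lists were chosen with earlier results of these data known. Alternatives were pseudocount, filters, scaling, the groups fitted, a replicate block, transcript matching, voom on estimated read pairs, and leaving out libraries. Replicate numbers were not taken as pairs in the reported fit. Deviations of same-numbered libraries correlated by -0.022 to 0.201, above 0.1 in 1 of 12 pairs, that of the siKctd10 libraries numbered 3. Whether libraries of the same number shared a batch was not tested.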

Additional observations from a re-analysis of the deposited data

Results flagged for a closer look

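The effect of siKctd10 differed between D2 and D0 for 3 channel genes, by the limma test of the interaction of day and siRNA over all genes. For the inward rectifier gene Kcnj2, the log2 fold change on D2 exceeded that on D0 by 1.39 (adjusted p = 0.00066). For the sodium-sensing channel gene Scn7a it exceeded it by 1.60 (adjusted p = 0.0052), with siKctd10 libraries above siControl libraries on D2 and below them on D0. For the mechanosensitive channel gene Piezo2 it exceeded it by 0.79 (adjusted p = 0.048), a call kept in 1 of 12 fits that left out a library. What these differences rest on was not tested.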

How the results depend on the processing

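Over the 67 called results, 654 of 693 values under other settings kept the call and direction, 38 lost the call and 1 reversed, and with single libraries left out 747 of 804 kept it and 57 lost it. The reversal was Ano8 between D2 and D0 in siKctd10 cells, at -1.22 (adjusted p = 0.074) with identical introns only, a setting that leaves out the transcript holding most of its TPM. The count on D0, 1 gene, was 2 with a pseudocount of 0.1, a filter at mean TPM 5, median-ratio scaling or limma without trend, and 0 with quantile normalization, only the D0 groups in the fit, the replicate block, or without both siKctd10 libraries numbered 3 (a setting chosen after seeing the data). Keeping only genes of mean TPM 5 or more, which tests 22 of the genes, the counts were 5 on D2, against 9, 15 between days in siKctd10 cells, against 33, and 7 in siControl cells, against 21. The interaction gave 5 genes, against 3, with no filter, median-ratio scaling, quantile normalization, limma without trend and identical introns only, Scn4a being among those added. Leaving out single libraries gave counts of 0 to 2 on D0, 7 to 10 on D2, 28 to 33 and 19 to 23 between days in siKctd10 and siControl cells, and 2 to 5 in the interaction. Except for the reversal, the cause was not tested.

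The replicate block gave 0 genes on D0, 9 on D2, 32 and 23 between days in siKctd10 and siControl cells, and 2 in the interaction. Between siRNAs, 6 of 6 libraries correlated best with their own number on D0 and 2 of 6 on D2. Between days, 5 of 6 did so in siKctd10 cells and 0 of 6 in siControl cells. With so uneven a match the numbers were not taken as pairs, and a shared effect of the number in siKctd10 cells was not tested further. Genes near 1 TPM rest on few read pairs, and a missed threshold there does not show that levels were alike.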
